A study of Mus musculus with 6 samples.

Results

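CD4 T cells were the 169 of 5749 cells (2.94%) that the authors' deposited annotation of mouse prostate tumours places in the class T_CD4+, and they are described here beside the 559 cells of the class T_CD8+ and the 39 regulatory T cells of the class T_reg. The tumours came from PPS-ICBR, a single prostate cancer cell line labelled as resistant to immune checkpoint blockade, in C57Bl6 mice whose age and sex the labels leave out. Under 4 treatment conditions, 3 tumours each were profiled by droplet single-cell RNA sequencing of the leukocyte layer of a Percoll gradient, with a hashtag antibody marking each tumour. One library held the tumours of mice on a chow supplemented with 1,3-butanediol (BD) and on standard chow (SD), and the other those of mice given the butanediol chow together with blockade (BD+ICB) and blockade on standard chow (ICB). For the chow, the labels of both libraries list 80 mL butanediol, 120 mL water, 198 g chow and 2 g saccharine. The blockade was labelled PD-1 and CTLA-4, given biweekly at 0.2 mg, and 1,3-butanediol is metabolised in the body to β-hydroxybutyrate, a ketone body. The series title concerns a ketogenic diet and acquired resistance to immunotherapy, and the comparison it implies for these cells is that of the chows with and without blockade.

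CD4 T cells read peptides on MHC class II molecules through the T cell receptor, with the coreceptor CD4 holding the complex together. After activation they raise the high-affinity receptor for interleukin-2 and act mainly through secreted cytokines and membrane ligands of the TNF family, by which they license dendritic cells, direct CD8 T cells and macrophages, or, as regulatory cells carrying Foxp3, hold these back. In tumours treated with antibodies to PD-1 and CTLA-4 they are among the cells on which both targets are found.

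The 169 cells were spread very unevenly. The BD tumours gave 4, 0 and 2 cells and the SD tumours 3, 1 and 0, whereas the BD+ICB tumours gave 28, 53 and 14 and the ICB tumours 26, 12 and 26. Blockade and library coincide, so the gap between the 10 cells of one library and the 159 of the other cannot be assigned to either. A median CD4 T cell held 6065 unique molecular identifiers (UMIs, each standing for 1 captured RNA molecule) from 2052 genes, with a range of 1207 to 33249 UMIs. Summed over cells, a tumour held 87848 to 463042 UMIs in BD+ICB and 109877 to 172610 in ICB, and these sums set the precision of everything that follows. The libraries shared 1931 barcodes, and 1 CD4 T cell carried a barcode found in both. The listed tumour sizes, with no unit given, were 178, 203 and 172 in BD against 2348, 1216 and 870 in SD, and 48, 23 and 90 in BD+ICB against 1116, 995 and 289 in ICB, so diet and tumour size cannot be told apart. The tumours are the replicates; the labels do not say that they came from separate mice, and if any shared a mouse, the p-values describe no more than how far these tumours varied.

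The class name was checked against the genes that define it. Cd4 itself had a UMI in 142 of the 169 cells (84.0%, exact 95% interval 77.6 to 89.2%), against 4.29% of the T_CD8+ cells, 43.6% of the regulatory T cells and none of 132 natural killer cells. The same share was 0.245% in Cxcr2+ neutrophils, a cell type that should lack the gene. At least 1 UMI of the 7 genes of the T cell receptor complex was found in all 169 cells. The same held for 98.9% of the T_CD8+ cells, 94.7% of the natural killer cells and 5.26% of Cxcr2+ neutrophils. Unthinned, this measure thus hardly parts the class from natural killer cells. With every cell thinned to 1000 UMIs, the shares were 30.2% for Cd4 and 98.2% for the receptor complex, the latter against 62.9% in natural killer cells. Of the other markers given for the class, Cd3g, a chain of the receptor's signalling part, stood at 1493 CPM (the gene's UMIs as a share of the summed UMIs of the class, on the usual CPM scale), against 1407 in T_CD8+ cells and 788 in regulatory T cells. Trbc2, a constant gene of the receptor β chain, stood at 1185 CPM in the class, against 1337 and 980 in those 2 classes. Il2ra stood at 182 CPM in CD4 T cells, against 80.8 in T_CD8+ cells and 788 in regulatory T cells. The name therefore held for most of the cells, and intervals here cover counting error only.

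A minority of cells did not carry the expected coreceptor. UMIs of Cd8a or Cd8b1, the chains of the CD8 coreceptor, were present in 29 of the 169 cells (17.2%), against 87.8% of the T_CD8+ cells. By coreceptor, 121 cells had Cd4 alone, 21 had both, 8 had a CD8 chain alone and 19 had neither. After thinning to 1000 UMIs, 7.69% of the cells still had a CD8 chain. Foxp3, the factor that defines regulatory T cells, had UMIs in 2 CD4 T cells (1.18%), against 66.7% of the regulatory T cells.

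The marker Mcpt2, a mast cell protease, was not a property of the class. All 295 of its UMIs came from 1 cell of BD+ICB 1, the cell with the most UMIs of the class at 33249. That cell also held 169 UMIs of Mcpt4, 148 of Cma1, 209 of Tpsb2 and 27 of Cpa3, which are proteases of mast cells, and 80 of Tph1, an enzyme of serotonin synthesis. It had no UMI of Cd4 but 49 of the receptor complex. Of 17 genes listed for mast cells and basophils, 3 (Mcpt1, Mcpt8 and Il4) were at 0 in the class, and the summed level was 4063 CPM in BD+ICB 1 against 56.9 to 423 CPM in the other 5 blockade tumours.

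Interleukin-17 was likewise carried by very few cells. The 97 UMIs of Il17a lay in 2 cells, 69 in a cell of BD+ICB 2 and 28 in a cell of ICB 3. Both lacked Cd4 UMIs and held 30 and 19 UMIs of Trdc, the constant gene of the δ receptor chain, and 12 and 9 of Cd163l1, a scavenger receptor of γδ T cells. Il13, a type 2 cytokine, had 44 UMIs in 7 cells, 32 of them in a single cell. Il4 and Il5, further type 2 cytokines, had no UMI in the class, which puts their summed level below 2.94 CPM by the exact Poisson bound.

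The first comparison asked whether the diet went with a different share of CD4 T cells. CD4 T cells made up 1.32%, 0% and 1.71% of annotated cells in the BD tumours and 0.721%, 0.360% and 0% in the SD tumours. With blockade they made up 4.90%, 8.14% and 2.76% in the BD+ICB tumours and 3.13%, 2.11% and 2.85% in the ICB tumours. The highest shares were those of BD+ICB 1 and 2, but BD+ICB 3 lay among the ICB tumours, so the groups overlapped. The mean shares were 1.01% ± 0.896 in BD and 0.360% ± 0.361 in SD (SD, n = 3 each, two-sided exact permutation p = 0.4), and 5.27% ± 2.71 in BD+ICB and 2.69% ± 0.525 in ICB (SD, n = 3 each, two-sided exact permutation p = 0.3, where 0.1 is the smallest p that 3 tumours against 3 allow). Averaged over the 2 libraries, the share was 1.61 percentage points higher on the butanediol chow, with an exact p of 0.07 from permuting diet labels within each library and an adjusted p of 0.166 over the 19 annotated classes. The diet differences of the 2 libraries differed by 1.92 points (exact permutation p = 0.395). The mean with blockade rests largely on BD+ICB 2: without it the BD+ICB minus ICB difference was 1.14 points in place of 2.57 points, and the difference over both libraries 0.893 points. Neutrophils made up 3.50%, 4.30% and 20.1% of annotated cells in the BD+ICB tumours and 12.7%, 47.6% and 45.7% in the ICB tumours. With the neutrophil classes left out of the denominator, the difference over both libraries was 1.01 points (exact permutation p = 0.26). A share falls when other classes grow, and absolute cell numbers are not among the values used here.

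**Figure D1:**
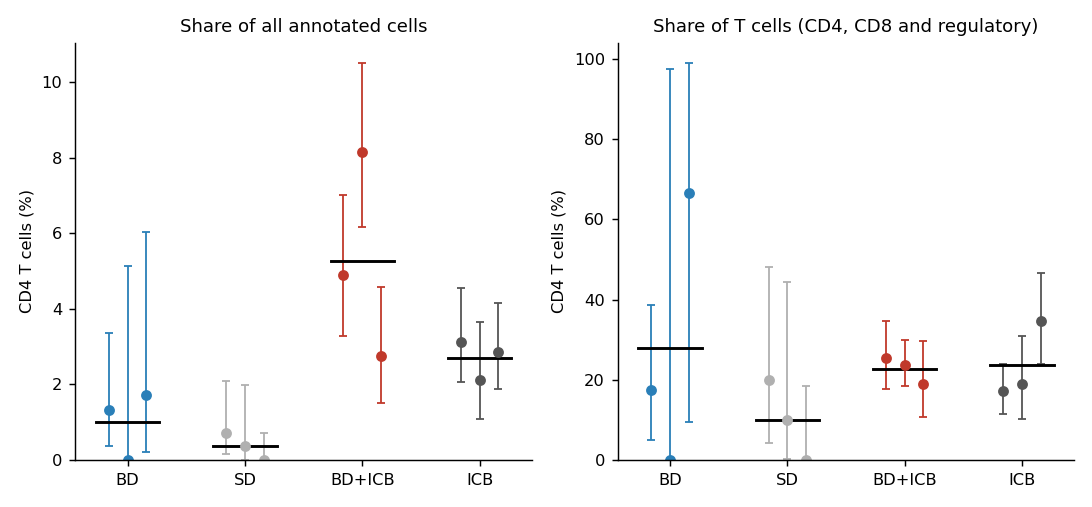
Share of CD4 T cells in each tumour, among all annotated cells (left, percent) and among the 3 T cell classes (right, percent); points are tumours, whiskers exact 95% binomial intervals and bars group means. On the left, BD+ICB 1 and 2 (4.90% and 8.14%) lie above every ICB tumour while BD+ICB 3 (2.76%) lies between them; on the right, the blockade tumours of both diets overlap at 17.1% to 34.7%, and the BD and SD values rest on very few cells.

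Shares within the T cells do not depend on how many myeloid cells a tumour gave. Among the 3 T cell classes, CD4 T cells were 25.5%, 23.8% and 18.9% in the BD+ICB tumours and 17.1%, 19.0% and 34.7% in the ICB tumours. The means were 22.7% ± 3.39 and 23.6% ± 9.63 (SD, n = 3 each, two-sided exact permutation p = 0.9), and the highest and the lowest value were both ICB tumours. Without blockade the shares were 17.4%, 0% and 66.7% in BD and 20%, 10% and 0% in SD, from 0 to 4 CD4 T cells a tumour. Over both libraries the diet difference was 8.56 points (exact permutation p = 0.61), and it turned to −1.10 points without BD 3, a tumour with 2 CD4 T cells. T_CD8+ cells were 16.9% ± 7.41 of annotated cells in BD+ICB and 9.39% ± 4.59 in ICB (SD, n = 3 each, exact permutation p = 0.3). Regulatory T cells were 9.26% ± 2.97 of the CD4-type cells (T_CD4+ and T_reg together) in BD+ICB tumours and 11.3% ± 11.8 in ICB tumours (SD, n = 3 each, exact permutation p = 0.8).

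What set CD4 T cells apart from the other T cell classes was a group of ligands and cytokines. The classes were made by clustering the same cells on the same genes, so these levels are a description with no test. They are given over the summed class of all tumours. Regulatory T cells came from both libraries, 11 from BD, 8 from SD, 9 from BD+ICB and 11 from ICB tumours. Of the CD4 T cells, 10 came from the library without blockade and 159 from the other. Levels against regulatory T cells are thus mixed with library and blockade. Each gene is compared between classes, and levels of different genes are not set against each other. Tnfsf8, the ligand of CD30, was at 377 CPM in CD4 T cells, against 11.8 CPM in T_CD8+ cells and 0 CPM in regulatory T cells, and 94 CD4 T cells (55.6%) had a UMI. Tnfsf11, the ligand RANKL that acts on dendritic cells and osteoclast precursors, was at 408 CPM, against 79.2 and 14.3 CPM, with UMIs in 87 cells (51.5%). Neither hung on a single cell, the highest cell holding 4.65% of the Tnfsf8 UMIs and 9% of the Tnfsf11 UMIs.

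Against T_CD8+ cells, the difference was the same way round in all 6 blockade tumours, while regulatory T cells were too few to compare by tumour. Tnfsf8 in CD4 T cells was 250, 380 and 535 CPM in BD+ICB and 417, 309 and 588 CPM in ICB, against 43.9, 8.90 and 0 CPM and 6.04, 7.93 and 3.89 CPM in T_CD8+ cells of the same tumours. Tnfsf11, Maf, Tnfrsf4, Tnfrsf18, Cd5, Nrp1 and St6gal1 were also higher in CD4 than in T_CD8+ cells of 6 of 6 tumours. Several of these genes were named for their ratio to other classes, in summed counts that came mostly from the same tumours. Their agreement over tumours was partly fixed by that choice, and the share of all genes so placed was not counted. St6gal1, a sialyltransferase, stood at 87.7 CPM, against 6.64 and 4.78 CPM in T_CD8+ and regulatory T cells, and Tbc1d4, a regulator of vesicle traffic, at 134 CPM, against 35.8 and 0 CPM. Cd40lg, the ligand through which helper cells license dendritic cells, was rare, at 12 CPM with UMIs in 12 CD4 T cells, against 1.53 CPM in T_CD8+ and 0 CPM in regulatory T cells. A single UMI is 4.78 CPM in regulatory T cells, so their 0 cannot be told from the level in CD4 T cells.

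Ccl1, Penk and Csf2 lay in fewer cells than these ligands. Ccl1, a chemokine for the receptor Ccr8, was at 973 CPM in CD4 T cells, against 160 CPM in T_CD8+ and 19.1 CPM in regulatory T cells, but only 40 cells (23.7%) had a UMI and 1 cell held 26.3% of them. Penk, the precursor of enkephalin peptides, was at 783 CPM, against 5.88 and 320 CPM, in 37 cells (21.9%), with 55.9% of its UMIs in a single cell. It was shared with regulatory T cells: thinned to 1000 UMIs, 11.2% of CD4 T cells and 10.5% of regulatory T cells had a UMI. Under blockade alone, Penk was at 786 CPM in CD4 T cells and 129 CPM in regulatory T cells. Csf2, which encodes the myeloid growth factor GM-CSF, was at 223 CPM, against 10.7 and 4.78 CPM, in 34 cells (20.1%). Ifng, the cytokine of type 1 helper cells, lay in 72 cells (42.6%) and was shared with T_CD8+ cells, at 242 CPM, against 178 and 28.7 CPM, and was higher in CD4 than in T_CD8+ cells in 2 of 6 tumours only.

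These products were often found in the same cells. Of the 40 cells with Ccl1, 35 (87.5%) also had Tnfsf11 and 29 (72.5%) had Il2ra, against 40.3% and 23.3% of the cells without Ccl1. Of the 34 cells with Csf2, 30 (88.2%) had Tnfsf11 and 27 (79.4%) had Il2ra, against 42.2% and 23.7% of the cells without Csf2. Of the 37 cells with Penk, 24 (64.9%) had Tnfsf11 and 12 (32.4%) had Il2ra, against 47.7% and 35.6% of the cells without Penk. Cells with more UMIs show more genes of any kind, and that part of the co-detection was not tested.

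**Figure D2:**
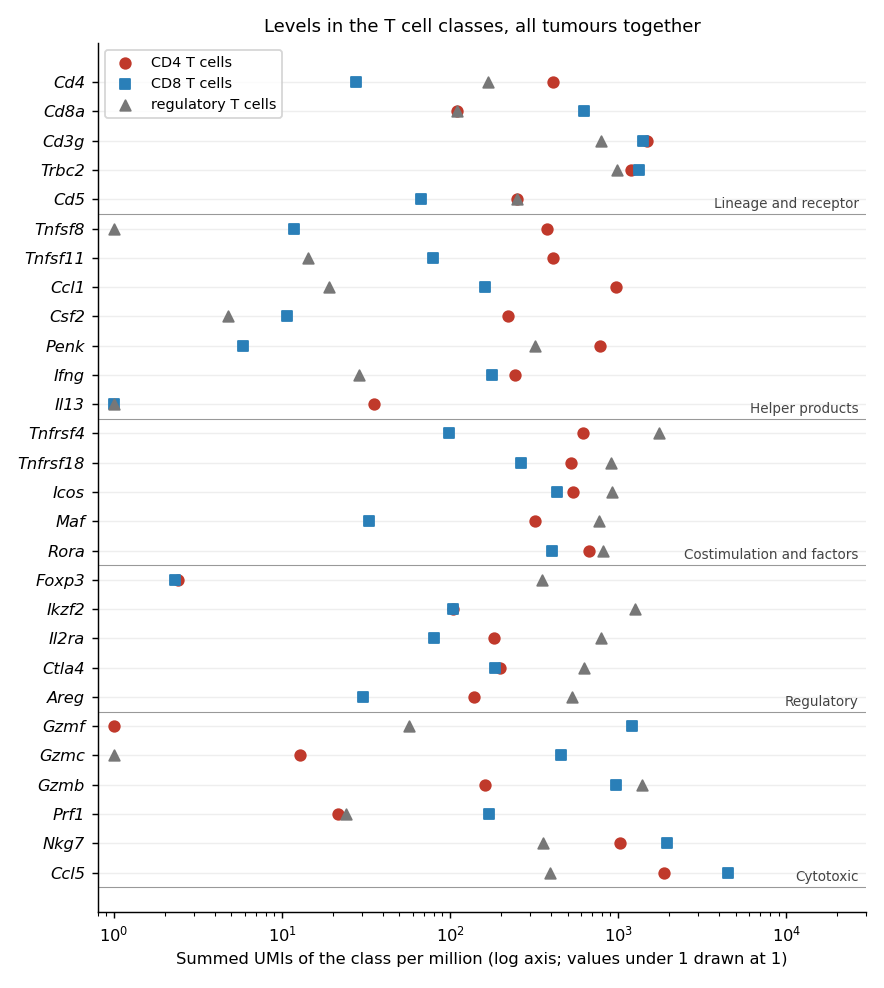
Level of 28 genes in CD4 T cells, T_CD8+ cells and regulatory T cells, as CPM of the summed class on a log axis, all tumours together, in 5 groups of genes. CD4 T cells lie to the right of both other classes for the helper products, such as Tnfsf8 (377 CPM) and Csf2 (223 CPM). They lie between them for Il2ra (182 CPM) and to the left of T_CD8+ cells for the granzymes. Of the helper products, Ifng was higher in CD4 than in T_CD8+ cells in 2 of 6 blockade tumours only. Single cells held 32 of the 44 Il13 UMIs and 548 of the 756 Penk UMIs of BD+ICB.

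Of the 14 genes listed for regulatory T cells, 12 had a level in CD4 T cells between those of the other 2 classes. The list was chosen for regulatory T cells, which were highest in all 12. The count thus says only that CD4 T cells lay above T_CD8+ cells, and the share of all genes so placed was not counted. Tnfrsf4, the receptor OX40, was at 615 CPM in CD4 T cells, against 97.9 CPM in T_CD8+ and 1744 CPM in regulatory T cells, and Tnfrsf18, the receptor GITR, at 521 CPM, against 266 and 903 CPM. Maf, a factor of helper and regulatory cells, was at 318 CPM, against 33.0 and 765 CPM. Ikzf2, which encodes the regulatory factor Helios, was about level with T_CD8+ cells, at 104.5 CPM in CD4 T cells, 104 CPM in T_CD8+ cells and 1252 CPM in regulatory T cells, and Foxp3 likewise, at 2.39, 2.30 and 354 CPM. The exceptions were Nrp1, a semaphorin coreceptor, which was highest in CD4 T cells at 69.4 CPM, against 24.8 and 19.1 CPM, and Lrrc32, which anchors latent TGF-β and had no UMI in CD4 T cells, against 1.02 and 110 CPM. That 0 allows up to 2.94 CPM by the exact Poisson bound, so Lrrc32 cannot be placed against T_CD8+ cells.

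Killing genes were low. Gzmf had no UMI in any of the 169 CD4 T cells, against 1205 CPM in T_CD8+ cells, and Gzmc was at 12.8 CPM against 458 CPM. Gzmb, the main granzyme of activated killer cells, was at 160 CPM in CD4 T cells, against 968 CPM in T_CD8+ and 1381 CPM in regulatory T cells. Prf1, the pore-forming protein perforin, was at 21.5 CPM, against 170 CPM in T_CD8+ cells. Gzmb, Gzmc, Gzmf, Prf1 and Nkg7 were lower in CD4 than in T_CD8+ cells of 6 of 6 blockade tumours. Here too, some were named for their low ratio to T_CD8+ cells, and the share of all genes so placed was not counted. Nkg7, a granule protein, and Ccl5, a chemokine of effector cells, were nevertheless well represented in CD4 T cells, at 1029 and 1886 CPM, against 1965 and 4507 CPM in T_CD8+ cells.

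In the library without blockade, 6 BD cells and 4 SD cells were too few for any test, and their summed UMIs are given with exact Poisson intervals. Cd4 was at 433 CPM (224 to 756) in BD and 314 CPM (126 to 647) in SD, overlapping each other. Il2ra, at 252 CPM (101 to 520) in BD and 269 CPM (98.8 to 586) in SD, overlapped too. So did every other gene looked at in these cells but Ctla4, Tnfsf11 and Penk, which are named because their intervals did not overlap. Ctla4, one of the receptors targeted in the other library, was at 937 CPM (612 to 1373) in BD and 44.9 CPM (1.14 to 250) in SD. Tnfsf11 was at 108 CPM (22.3 to 316) in BD and 898 CPM (548 to 1386) in SD, and Penk had no UMI in BD, which allows up to 133 CPM by the exact Poisson bound, and 1571 CPM (1094 to 2185) in SD. These intervals hold for the cells counted, which came from 2 tumours of each group, and single cells can set such values, as Penk shows in the class as a whole.

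The main comparison asked how CD4 T cells differed between BD+ICB and ICB tumours. In BD+ICB 7 genes rose, among them Il2ra, Tnfsf11 and Il1r2, and 14 fell, among them Ier3, Il1rn and Socs3, of 2308 genes tested with edgeR's quasi-likelihood test on UMIs summed per tumour. That is 0.91% of the genes tested at a Benjamini-Hochberg adjusted p under 0.05, with 0.303% raised and 0.607% lowered, and 241 genes had an unadjusted p under 0.05. The 3 BD+ICB values lay wholly above or below the 3 ICB values for all 21 genes, as they did for 380 genes (16.5%) of those tested. The median log2 fold of all genes tested was 0.01. The count depended on single tumours, with 4 genes past the threshold without BD+ICB 2, the tumour with most cells, and 4 without ICB 1. It was 1, Ier3, of 1551 genes tested when cells with a CD8 chain were left out and all 6 tumours kept, a choice made after seeing the data. Every one of the 21 genes kept its direction in all alternatives in which it was tested. As their groups did not overlap, leaving out a tumour could hardly reverse a direction.

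Il2ra encodes the α chain of the high-affinity interleukin-2 receptor, which activated and regulatory T cells raise. It stood at 259, 263 and 102 CPM in the BD+ICB tumours and 52.1, 100.1 and 22.3 CPM in the ICB tumours. The lowest BD+ICB value, of BD+ICB 3, exceeded the highest ICB value, of ICB 2, by little. The log2 fold of BD+ICB over ICB was 2.01 ± 0.43 (SE, edgeR, adjusted p = 0.0477). A UMI of Il2ra was found in 45 of 95 CD4 T cells of BD+ICB (47.4%) and in 10 of 64 of ICB (15.6%), at median depths of 6082 to 6657 and 5466 to 6614 UMIs per cell in the tumours. The call was near the threshold: it was kept in 12 of 23 alternatives, and it was lost without BD+ICB 1, BD+ICB 2, ICB 1 or ICB 3 (edgeR adjusted p of 0.0979 to 0.373), with log2 folds of 1.55 to 2.93 over the 23. Some of the 23, named in the section on processing choices, left the summed counts unchanged. They keep every call by design, here and in the tallies of the genes below.

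Tnfsf11, the RANKL gene, stood at 420, 540 and 455 CPM in BD+ICB and 185, 346 and 216 CPM in ICB. All 3 BD+ICB tumours lay above all 3 ICB tumours. The log2 fold was 0.97 ± 0.23 (SE, edgeR adjusted p = 0.0477), and 60 of 95 BD+ICB cells (63.2%) had a UMI against 22 of 64 ICB cells (34.4%). This call was kept in 11 of 23 alternatives, with log2 folds of 0.48 to 1.38, and lost on leaving out any tumour but ICB 2 (edgeR adjusted p of 0.0540 to 0.358).

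Il1r2, a decoy receptor that binds interleukin-1 without signalling, stood at 199, 302 and 307 CPM in BD+ICB and 116, 45.5 and 74.4 CPM in ICB, with no overlap. The log2 fold was 1.70 ± 0.32 (SE, edgeR adjusted p = 0.0123), with UMIs in 42 of 95 BD+ICB cells (44.2%) and 11 of 64 ICB cells (17.2%). The call was kept in 20 of 23 alternatives. It was lost without BD+ICB 2 (edgeR adjusted p = 0.0734) and, with all 6 tumours kept, without cells with a CD8 chain or without cells with neutrophil UMIs (edgeR adjusted p of 0.146 and 0.136).

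The promoters of these genes are shown because they are the raised genes with the clearest roles in T cells and interleukin signalling. Each is the 250 bases before the annotated start in RefSeq on GRCm38.p6, written 5′ to 3′ on the coding strand. Capitals mark a match to a motif searched on both strands, TGANTCA for AP-1, TTCNNNGAA for STAT factors or TATAAA for a TATA box. The Il2ra window, chr2:11642542-11642791 on the plus strand, held no match. The Tnfsf11 window, chr14:78308044-78308293 on the minus strand, held TTTATA, the reverse complement of TATAAA, 32 to 27 bases before the start. The Il1r2 window, chr1:40085843-40086092 on the plus strand, held the STAT letters TTCAAGGAA 111 to 103 bases before the start.
Il2ra: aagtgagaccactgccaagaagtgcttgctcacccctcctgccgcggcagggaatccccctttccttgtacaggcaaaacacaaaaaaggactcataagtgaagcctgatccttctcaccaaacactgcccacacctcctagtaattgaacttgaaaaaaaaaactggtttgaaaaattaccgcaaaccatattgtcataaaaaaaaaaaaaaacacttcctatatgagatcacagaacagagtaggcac
Tnfsf11: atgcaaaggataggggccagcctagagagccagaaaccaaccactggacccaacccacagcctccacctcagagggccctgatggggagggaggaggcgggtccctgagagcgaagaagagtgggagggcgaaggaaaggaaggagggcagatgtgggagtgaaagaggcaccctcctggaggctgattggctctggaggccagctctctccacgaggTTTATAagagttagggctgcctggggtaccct
Il1r2: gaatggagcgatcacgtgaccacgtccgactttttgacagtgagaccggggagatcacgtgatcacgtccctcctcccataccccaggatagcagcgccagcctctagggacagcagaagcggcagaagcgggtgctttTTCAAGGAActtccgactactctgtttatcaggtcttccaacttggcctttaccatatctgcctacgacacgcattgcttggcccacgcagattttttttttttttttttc

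All 21 genes had an entry in the table of promoters, and 2 of the 21 held the AP-1 letters, 2 the STAT letters and 2 the TATA letters. Among all 27025 promoters of the same length, 6.87%, 7.11% and 12.9% held them. The matches describe these windows and say nothing of which factor acts there.

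The remaining raised genes were an inhibitory receptor and genes of the cytoskeleton and of AP-1. Klrc1 encodes NKG2A, which with CD94 forms an inhibitory receptor, and stood at 314, 296 and 410 CPM in BD+ICB and 180, 182 and 104 CPM in ICB. Its log2 fold was 1.09 ± 0.25 (SE, edgeR adjusted p = 0.0477), and 66 of 95 BD+ICB cells had a UMI against 28 of 64 ICB cells. Klrd1, its CD94 partner, stood at 517, 525 and 615 CPM in BD+ICB and 203, 437 and 305 CPM in ICB, no overlap but a log2 difference of 0.84 that did not pass (edgeR adjusted p = 0.116). Capg, which caps actin filaments, stood at 488, 404 and 535 CPM in BD+ICB and 255, 264 and 149 CPM in ICB (log2 fold 1.08 ± 0.23 SE, edgeR adjusted p = 0.0338). Jund, a subunit of AP-1, stood at 1548, 1801 and 1423 CPM in BD+ICB and at 1083, 1065 and 1064 CPM in ICB (log2 fold 0.59 ± 0.14 SE, edgeR adjusted p = 0.0477). Tmsb4x, the actin-binding thymosin β, averaged 17489 ± 1601 CPM in BD+ICB and 12757 ± 841 CPM in ICB (SD, n = 3 each; log2 fold 0.46 ± 0.08 SE, edgeR adjusted p = 0.00745). Tmsb4x kept its call on leaving out any tumour, whereas Klrc1 lost it without any tumour but ICB 2, Jund without any but BD+ICB 3, and Capg without BD+ICB 1, BD+ICB 2, ICB 1 or ICB 3 (edgeR adjusted p of 0.0554 to 0.450).

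Among the 14 genes that fell, Ier3, an early-response gene that NF-κB raises, had the smallest p, at 84.8, 58.3 and 56.9 CPM in BD+ICB and 353, 428 and 231 CPM in ICB, without overlap. Its log2 fold was −2.31 ± 0.29 (SE, edgeR adjusted p = 0.000319), and it kept its call in all 20 alternatives that tested it. A UMI of Ier3 was found in 32 of 95 BD+ICB cells (33.7%) and 22 of 64 ICB cells (34.4%). Single cells held 34 of its 61 UMIs in ICB 1, 26 of 47 in ICB 2 and 11 of 31 in ICB 3. Il1rn, the antagonist of the interleukin-1 receptor, stood at 59.4, 23.8 and 45.5 CPM in BD+ICB and 197, 237 and 223 CPM in ICB. Its log2 fold was −2.48 ± 0.33 (SE, edgeR adjusted p = 0.000394), and it kept its call in all 17 alternatives that tested it. Those that left out cells with neutrophil UMIs could not test it. A UMI of Il1rn was found in 11 of 95 BD+ICB cells (11.6%) and 9 of 64 ICB cells (14.1%). Single cells held 30 of its 34 UMIs in ICB 1, 26 of 26 in ICB 2 and 25 of 30 in ICB 3. Socs3, a feedback inhibitor of cytokine signalling through JAK and STAT proteins, stood at 46.7, 47.5 and 45.5 CPM in BD+ICB and 98.5, 182 and 112 CPM in ICB. Its log2 fold was −1.41 ± 0.33 (SE, edgeR adjusted p = 0.0477), a call that leaving out any single tumour ended (edgeR adjusted p of 0.0663 to 0.243). A UMI of Socs3 was found in 21 of 95 BD+ICB cells (22.1%) and 24 of 64 ICB cells (37.5%).

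Ets2, a transcription factor of the ETS family, averaged 31.0 ± 17.3 CPM in BD+ICB and 171 ± 72.8 CPM in ICB (SD, n = 3 each; log2 fold −2.51, edgeR adjusted p = 0.00506). Ccl3, an inflammatory chemokine, averaged 22.1 ± 19.2 CPM in BD+ICB and 207 ± 87.8 CPM in ICB (SD, n = 3 each; log2 fold −2.88, edgeR adjusted p = 0.00506). Both were lost without BD+ICB 2 or ICB 1 (edgeR adjusted p of 0.0554 to 0.0642). Ets2 had a UMI in 15 of 95 BD+ICB cells and 29 of 64 ICB cells. Ccl3 had one in 10 of 95 and 7 of 64 cells, and 1 cell held 49 of its 52 UMIs in ICB 1. The other genes that fell were Slpi, a protease inhibitor of leukocytes and epithelia, Upp1, a uridine phosphorylase, Tnfaip2, a gene that TNF raises, Clec4d, a lectin receptor of myeloid cells, Cd9, a tetraspanin, Chka, a choline kinase, Rab11b, a GTPase of recycling endosomes, Ppp1r15a, a stress-response phosphatase subunit, and 1700017B05Rik. Their log2 folds ran from −3.98 for Slpi to −1.26 for Ppp1r15a, with edgeR adjusted p of 0.000319 to 0.0477. Each of these 9 lost its call on leaving out at least 1 tumour, with edgeR adjusted p of 0.0537 to 0.556 where lost. The tumour was ICB 1 for Slpi, BD+ICB 2 for Upp1, either BD+ICB 2 or ICB 3 for Chka, and any of BD+ICB 2, ICB 1 and ICB 2 for Cd9. It was any of BD+ICB 2, ICB 1 and ICB 3 for Clec4d, of BD+ICB 2, BD+ICB 3 and ICB 1 for 1700017B05Rik, of BD+ICB 1, BD+ICB 2, ICB 1 and ICB 3 for Ppp1r15a and of the 3 BD+ICB tumours and ICB 1 for Tnfaip2. For Rab11b it was any of the 6, and Upp1 and Chka could not be tested without ICB 1.

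**Figure D3:**
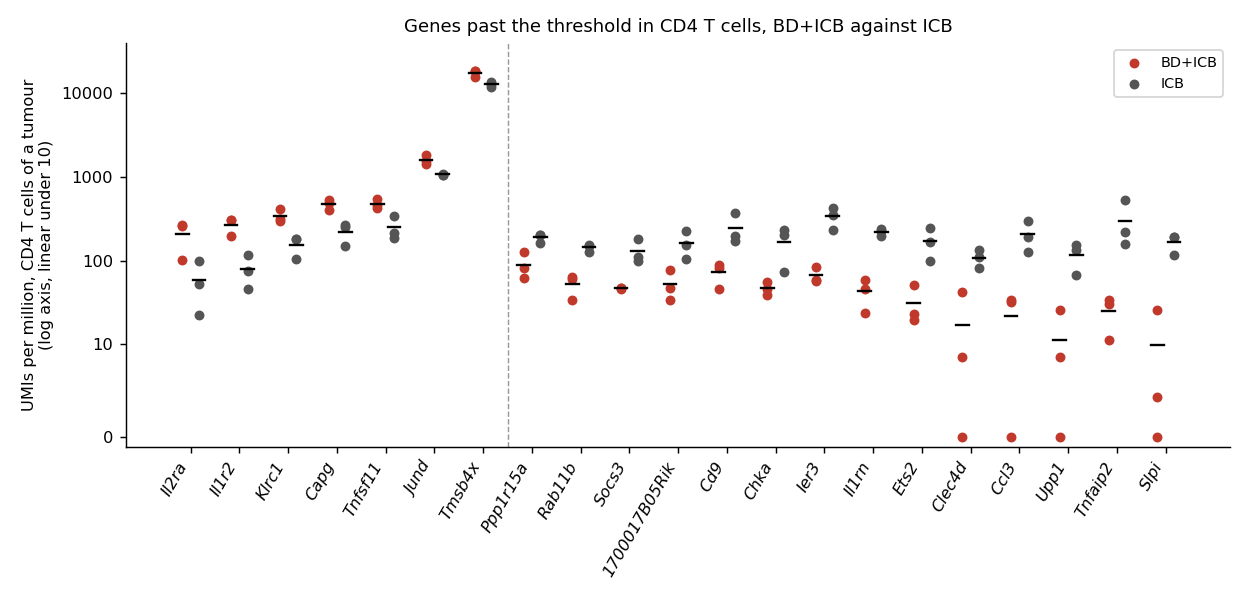
Level of the 21 genes past the threshold in the CD4 T cells of each blockade tumour, in CPM on an axis that is logarithmic above 10; points are tumours, bars group means, and the dashed line parts genes raised in BD+ICB (left) from genes lowered (right). No gene has overlapping groups; Il2ra reaches 263 CPM in BD+ICB and 100.1 CPM in ICB at most, and several lowered genes are at or near 0 in BD+ICB.

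Most of the lowered genes had a higher level in neutrophils than in CD4 T cells, and neutrophil shares differed between the tumours. Their share was 3.50% to 20.1% in BD+ICB and 12.7% to 47.6% in ICB, as given above per tumour. The level in neutrophils exceeded that in CD4 T cells for 13 of the 14 lowered genes, by a median of 17.2 times over the 14 (range 0.872 to 62.1), and for 1 of the 7 raised genes, Il1r2. The share of all genes tested with a higher level in neutrophils was not counted, so these counts have no background. Nor was this particular to neutrophils: all lowered genes but Rab11b were also higher in macrophages than in CD4 T cells. Il1rn, for example, stood at 1137 CPM in macrophages against 98.9 CPM in CD4 T cells under blockade. Of the raised genes Capg alone was higher in macrophages. The summed level of the 8 genes listed for neutrophils in CD4 T cells was 363 to 386 CPM in BD+ICB and 846 to 4496 CPM in ICB. None of the 8 was at 0, and 4 were under 20 CPM in the class. S100a8 and S100a9, calcium-binding proteins that fill the neutrophil cytosol, had log2 differences of −4.23 and −5.50 that did not pass (edgeR adjusted p of 0.379 and 0.302).

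These transcripts were concentrated in few cells. Leaving Il1r2 aside, the other 7 neutrophil genes had a UMI in 25 of 95 CD4 T cells of BD+ICB and 20 of 64 of ICB. One cell in each of the 6 blockade tumours held 5 or more of them, with 36, 5 and 6 UMIs in BD+ICB and 118, 486 and 293 UMIs in ICB. The BD+ICB 1 cell was the cell with Mcpt2. The 6 cells held 33 to 107 UMIs of the T cell receptor complex and 0 to 9 of Cd4. They carried 10.4% to 83.3% of all UMIs of a lowered gene (median 43.6%) and at most 14.5% of those of a raised gene.

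Without these 6 cells, an alternative added after seeing the data, 9 genes passed, of which 4 rose and 5 fell. Among them were 7 of the 21 genes: Il1r2 (log2 fold 2.30), Klrc1 (1.22) and Tmsb4x (0.38) rose, and Ier3 (−1.92), Ets2 (−2.12), Socs3 (−1.78) and 1700017B05Rik (−1.72) fell. Il2ra kept a log2 fold of 2.58 and Tnfsf11 one of 0.93 without passing (edgeR adjusted p of 0.170 and 0.0788). Il1rn, Slpi, Ccl3, Upp1, Tnfaip2, Clec4d and Chka no longer had enough UMIs to be tested. Leaving out instead every cell with any UMI of the 7 genes left 123 of the 169 cells, with 8 in ICB 2. With all 6 tumours kept, no gene passed in edgeR among 1328 tested, and 108 had an unadjusted p under 0.05. Only 8 of the 21 genes could then be tested, the 7 raised ones and Ppp1r15a. Their directions were those in all cells, with log2 differences of 1.92 for Il2ra, 1.93 for Il1r2 and 0.82 for Tnfsf11 (edgeR adjusted p of 0.285, 0.136 and 0.592). With ICB 2 dropped, as the minimum of 10 cells a tumour requires, 14 genes passed among 1520, with Il2ra, Il1r2, Capg and Tnfsf11 among the 9 that rose, so these calls under that filter rest on which ICB tumours enter.

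**Figure D4:**
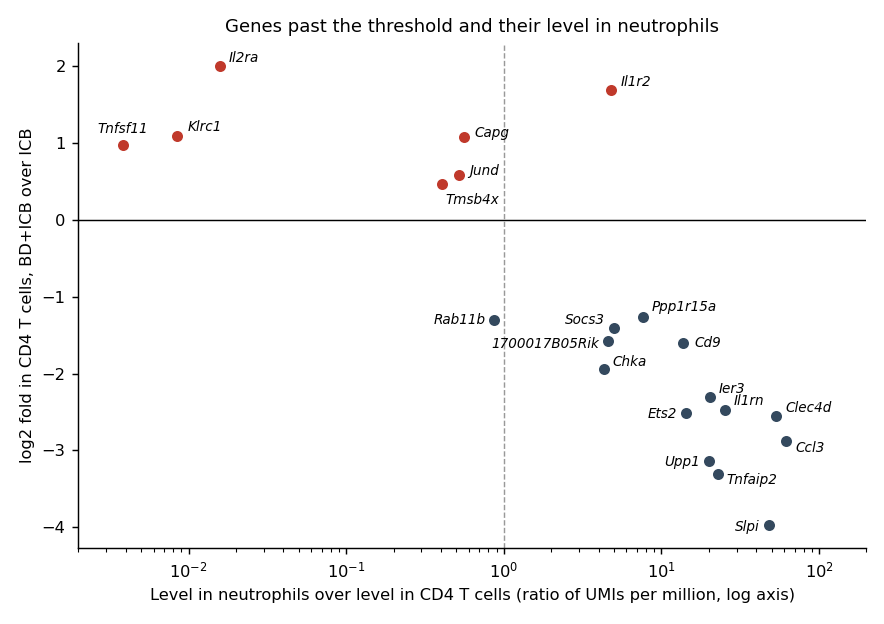
Log2 fold in CD4 T cells of BD+ICB over ICB against the level in neutrophils divided by that in CD4 T cells (ratio of CPM, log axis), 1 point for each of the 21 genes past the threshold, raised genes in red and lowered genes in dark blue. Of the 14 lowered genes 13 lie right of the dashed line, where the neutrophil level is the higher one, whereas 6 of the 7 raised genes lie left of it.

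Gene lists are described by their counts and medians. Of the 7 tested genes of the T cell receptor complex none passed, with a median log2 fold of 0.11 beside 0.01 for all genes tested, and of 10 genes of T cell signalling none passed (median 0.02). Among 13 tested genes of interleukin-2 family signalling, Il2ra rose, Socs3 fell and the median was 0.04. Within that family Il2rb, the β chain of the receptor, had a log2 difference of 0.04, Il2rg, the common γ chain, 0.48 and Il7r, the interleukin-7 receptor, 0.59, none of which passed (edgeR adjusted p of 0.343 to 0.954). Medians farther from that of all genes came from lists with few tested genes: −4.23 over 3 neutrophil genes, of which Il1r2 rose, 0.73 over 4 dendritic cell genes, 0.70 over 3 CD8 lineage genes, −0.48 over 4 follicular helper genes and −0.45 over 3 mesenchymal genes. Apart from Il1r2, none of the genes of these 5 lists passed.

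Of 12 tested genes of costimulation and activation, Il2ra and Tnfsf11 rose, none fell and the median was 0.06. Cd27, a costimulatory receptor lost on terminal differentiation, stood at 97.5, 28.1 and 34.1 CPM in BD+ICB and 180, 164 and 126 CPM in ICB, a log2 difference of −1.59 that did not pass (edgeR adjusted p = 0.0970). Of 8 tested genes of regulatory T cells, Il2ra and Capg rose, and the median was −0.05. Of 8 tested checkpoint receptors and exhaustion genes none passed (median 0.23), with Pdcd1, which encodes PD-1, at 288, 149 and 68.3 CPM in BD+ICB and 348, 328 and 312 CPM in ICB (edgeR adjusted p = 0.389).

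Of 7 tested genes of type 1 helper cells none passed (median 0.28). Ifng stood at 212, 415 and 45.5 CPM in BD+ICB and 104, 27.3 and 179 CPM in ICB, overlapping groups with a log2 difference of 1.27 ± 0.87 (SE, edgeR adjusted p = 0.697). Of 15 tested AP-1 and early-response genes Jund rose, Ier3 fell and the median was −0.32. Of 7 tested cytotoxic genes Ccl3 fell (median −0.41). Cd4 itself stood at 288, 415 and 421 CPM in BD+ICB and 521, 400.4 and 454 CPM in ICB, a log2 difference of −0.30 that did not pass (edgeR adjusted p = 0.657).

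Metabolic and chromatin genes were listed because the series concerns a ketogenic diet and histone deacetylases. None passed among 11 tested glycolysis genes (median −0.06) or 12 genes of the respiratory chain (median 0.06). Of 11 genes for ketone body use and monocarboxylate transport 1 could be tested at this depth, Bsg, a partner of the lactate transporters, with a log2 difference of −0.09, and of 12 histone deacetylases 1 could be tested. None of 12 MHC class I genes passed (median −0.03). Of the ligands and secreted products described for the class, Tnfsf11 rose as given above. The others did not pass: Tnfsf8, Csf2, Ccl1 and Penk had log2 differences of −0.22, −0.53, −0.17 and 0.77 with edgeR adjusted p of 0.852 to 0.981. Ccl1 had UMIs in 32 of 95 BD+ICB cells and 7 of 64 ICB cells, but 1 cell of ICB 2 held 321 UMIs.

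T_CD8+ cells of the same 6 tumours, with 46 to 165 cells each, were fitted in the same way for comparison. There 50 of 5333 genes passed (0.938%), 3 raised (0.0563%) and 47 lowered (0.881%). Of the 21 CD4 genes, 20 were tested in T_CD8+ cells and 18 had the same sign. The share of all genes with the same sign in both classes was not counted, so the 18 have no background. In T_CD8+ cells 5 of the 20 passed, namely Il1rn, Ets2, Ccl3, Tnfaip2 and Clec4d, all lowered. Il2ra had a log2 difference of 1.26 ± 0.30 in T_CD8+ cells (SE, edgeR adjusted p = 0.0749) and Tnfsf11 of 0.86 ± 0.59 (adjusted p = 0.756). The 2 classes come from the same tumours, so this is no independent repeat.

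Whether the diet difference itself differed between the classes was tested as an interaction with the tumour as a block, over 4876 genes. One gene passed (0.0205%), Il1r2, and 213 had an unadjusted p under 0.05. Il1r2 in T_CD8+ cells stood at 30.4, 19.4 and 25.6 CPM in BD+ICB and 42.3, 66.1 and 42.8 CPM in ICB, a log2 difference of −1.04 ± 0.30 (SE, edgeR adjusted p = 0.171). The CD4 difference thus exceeded the T_CD8+ one by 2.73 ± 0.47 (SE, edgeR adjusted p = 0.0267). This call was lost without BD+ICB 2, BD+ICB 3, ICB 2 or ICB 3 (edgeR adjusted p of 0.0594 to 0.413). For Il2ra the CD4 difference exceeded the T_CD8+ one by 0.70 ± 0.44 (SE, edgeR adjusted p = 1). Regulatory T cells numbered 0 to 8 a blockade tumour and could not be fitted.

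**Figure D5:**
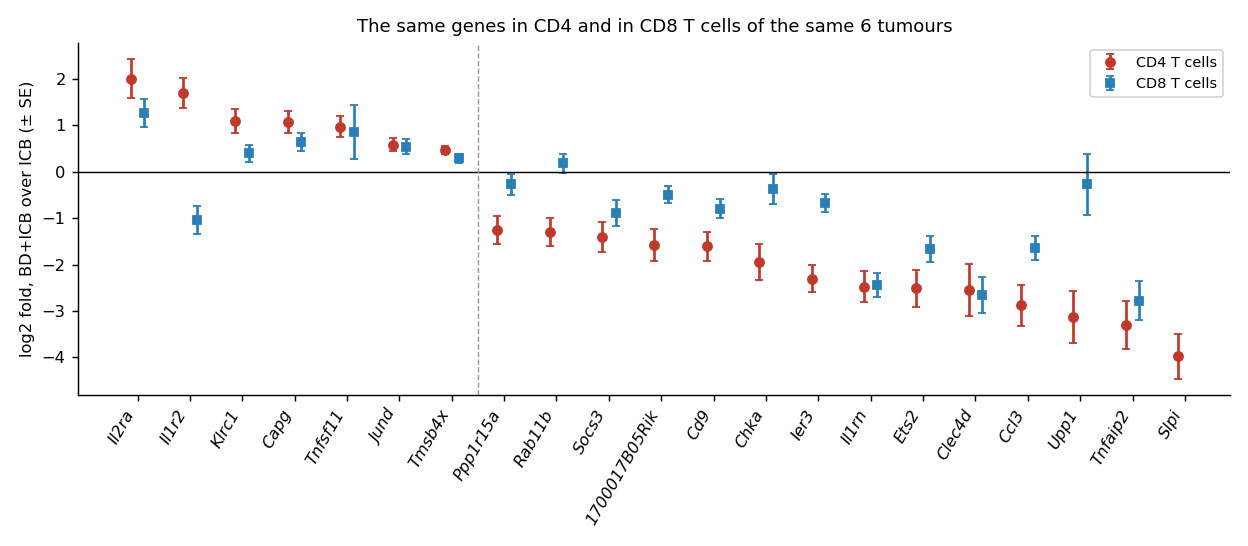
Log2 fold of BD+ICB over ICB (± SE of the edgeR fit) for the 21 genes past the threshold in CD4 T cells, in CD4 T cells (red circles) and T_CD8+ cells (blue squares) of the same 6 tumours; Slpi was not tested in T_CD8+ cells. The sign is the same for 18 of 20 genes, and the share over all genes was not counted. Il1r2 is up by 1.70 in CD4 T cells and down by 1.04 in T_CD8+ cells, and Rab11b is the other gene with opposite signs.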

How the data were processed

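The authors deposited a table of raw UMI counts per gene and cell (Cell Ranger 6.1.1 per the file headers; mm10 and R 4.1 per the submitters' processing notes), with the class, tumour and treatment of each cell. The deposited percent of mitochondrial UMIs was the authors' own value per cell. Counts equalled those in the deposited matrices for all 5749 cells; 0.00369% of UMIs lay on genes outside the table. No doublet caller was run, and whether doublets were removed is not given in the sources used here.

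UMIs were summed per tumour and class where a tumour had at least 10 cells, which left the 6 blockade tumours (87848 to 463042 UMIs each), and were tested in R 4.3.3 with edgeR 4.0.16 (TMM, filterByExpr, robust quasi-likelihood fit, Benjamini-Hochberg threshold 0.05). DESeq2 1.42.0 was an alternative. The BD against SD comparison and all comparisons of blockade against none had too few cells. Shares were compared by an exact test that permuted the diets of tumours inside each library (Python 3.11.15, scipy 1.17.1). The edgeR steps were tested on simulated data. Class levels were summed over all tumours, and for shares of cells with a UMI each cell was also thinned to 1000 UMIs.

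The members and lists were chosen with earlier results of these data known. The genes named were the 5 given markers, members of fixed lists by level, genes with the highest ratio to other classes, the 15 raised and 15 lowered genes with the smallest adjusted p, and list members beside them. Alternatives were DESeq2, other size factors, filters on genes and cells, a stricter hashtag rule, a replicate block and leaving out each tumour; those on neutrophil genes, and those keeping all 6 tumours with at least 5 cells, were added after seeing the data. Replicate numbers were not treated as pairs. Same-numbered blockade tumours had correlations of deviations of 0.0299, 0.0211 and −0.0119, against −0.0433 to 0.0201 for the other pairs. With 3 tumours a group, these values cannot exclude a pairing.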

Additional observations from a re-analysis of the deposited data

Results flagged for a closer look

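The diet difference of Il1r2 differed between CD4 T cells and T_CD8+ cells of the blockade tumours by 2.73 on the log2 scale (edgeR quasi-likelihood interaction, Benjamini-Hochberg adjusted p = 0.0267). It was 1 gene past the threshold of 4876 tested. CD4 T cells had higher Il1r2 in BD+ICB than in ICB in all 3 against 3 tumours, and T_CD8+ cells lower in all 3 against 3. Il1r2 is also a neutrophil gene. Its call in CD4 T cells held without the 6 cells with 5 or more neutrophil UMIs and was lost without every cell with such a UMI when all 6 tumours were kept (edgeR adjusted p = 0.136), whereas the interaction lost its call without BD+ICB 2, BD+ICB 3, ICB 2 or ICB 3.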

How the results depend on the processing

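The 21 genes past the threshold kept their direction in all 428 values recomputed under the alternatives and passed in 285 of them. Their groups did not overlap, so leaving out a tumour could hardly reverse a direction. Other size factors or tools used the same counts. The kept directions thus add little. Some alternatives changed no cell or tumour of the fit and so could only repeat it. They were at least 5 cells per tumour, at least 1000 UMIs per cell, only the tumours of the library, and a UMI of the receptor complex. Their values are among the 428 and the 285 and in the tallies per gene, and they add no evidence for the 21 genes. The count, 7 raised and 14 lowered, was 71 without a filter on low counts (23 raised, 48 lowered), 47 with at least 20 cells per tumour (23 raised, 24 lowered), 25 with DESeq2 (4 raised), 14 with RLE size factors (3 raised), 16 with the stricter hashtag rule (6 lowered) and 16 without cells with Foxp3 (4 raised). The alternatives added after seeing the data gave 9 without the 6 cells with 5 or more UMIs of neutrophil genes (4 raised, 5 lowered) and, without every cell with such a UMI, 0 with all 6 tumours kept and 14 (5 lowered) with ICB 2 dropped for having 8 cells, 8 of the 21 being testable in both. Without cells with a CD8 chain it was 1 (0 raised, 1 lowered) with all 6 tumours kept and 25 with ICB 2 dropped. Leaving out each tumour gave 4 to 29 genes, of which 1 to 12 were raised and 2 to 21 lowered. With the replicate block it was 31 (25 lowered, 18 of the 21 among them), although a pairing by number was not shown. The exact paired p of the share was 0.125. The interaction with T_CD8+ cells gave 14 genes without a filter and 0 to 5 on leaving out a tumour, and 1 with RLE size factors. Leaving out each tumour moved the diet difference of the CD4 share of T cells between −1.10 points (without BD 3) and 15.6 points, and that of the regulatory share of CD4-type cells between −12.3 and 12.7 points, with reversals to 12.7 without BD 3, 8.81 without SD 3 and 1.45 without ICB 1. No result for the CD4 share of annotated cells passed an adjusted p of 0.05. Thinned to 500 UMIs, 17.8% of cells had Cd4, 2.96% a CD8 chain and 90.5% the receptor complex; unthinned, these were 84.0%, 17.2% and 100%. The cause of these changes was not tested. With 12 to 53 cells a tumour, 2308 genes could be tested.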

Other observations

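The deposited annotation holds only cells with over 500 hashtag counts. When all cells were assigned to classes from their nearest annotated neighbours with no such limit, a procedure that gave 79.9% of the annotated CD4 T cells their deposited class, BD+ICB 1 had 43 CD4 T cells, of which 25 (58.1%) were over the limit. The share over the limit was 89.7% in BD+ICB 2 and 100% in BD+ICB 3 and the 3 ICB tumours. The diet difference of the CD4 share of cells was then 1.54 points (exact permutation p = 0.075).

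Receptor variable segments could not be used to count clones, since the class had 35 UMIs of Trbv genes and 26 of Trav genes beside 2236 of the β constant genes. The 4 red cell genes measured of 5 listed had no UMI in the class.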
